A study of Homo sapiens with 2 samples.

Results

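Imprinted genes are those with some or all transcripts expressed mainly from the copy inherited from 1 parent. In SH-SY5Y, a human neuroblastoma cell line, 10 such genes other than DLK1 were chosen by symbol: GNAS, MEG3, PEG3, PEG10, NDN, MEST, SNRPN, IGF2, H19 and NNAT. Of these 10 genes, 9 were found by Ensembl identifier among the 33538 gene rows of the count table, and H19 was not analysed here. All cells were untreated and came from an adherent culture that was split into 2 flasks, SplitA and SplitB. The cells of SplitA carried the antibody Hashtag-1 and those of SplitB the antibody Hashtag-2, and both flasks were sequenced together in 1 mRNA library with a hashtag library beside it. There was therefore no treatment, genotype or time to compare, and the flasks describe how far a value repeats in the same cell line.

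A cell was given to a flask when 1 hashtag was at least 3 times the other and the other was at most 185 counts. Of 2879 cells, all with distinct barcodes, 1179 were given to SplitA, 1605 to SplitB and 95 to neither. Cells with 1000 or more genes were kept, which left 899 in SplitA and 1195 in SplitB. They held 5852780 and 8066440 UMIs (unique molecular identifiers, 1 for each captured RNA molecule), with a median of 6063 and 6346 per cell and a range of 1801 to 27205. Levels are given as CPM, the share of all UMIs in a flask that belongs to a gene, times 1000000, with exact Poisson 95% intervals, and shares of cells have exact binomial 95% intervals. These intervals cover counting error only. With 1 flask against 1 flask and 1 library, there was no test between groups, and the cells of a flask are not its replicates. All 10 adrenergic neuroblastoma markers were detected, summing to 3048 CPM in SplitA and 2944 CPM in SplitB, with PHOX2A at 685 and 665 CPM. The 9 mesenchymal or Schwann-like markers summed to 130.4 and 163 CPM, mostly VIM, with PRRX1 and SOX10 at 0. The 6 fibroblast markers summed to 21 and 25.4 CPM, and the 3 blood markers PTPRC, CD74 and HBB had no UMI.

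Imprinting is set in the germ line by DNA methylation at control regions, and 1 control region usually governs a cluster of neighbouring genes. Many imprinted genes act in growth, placenta and brain. Loss or gain of an imprint is a known event in tumours of childhood. The counts do not say from which parental copy an RNA was made.

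Positions are those of GENCODE 44 on GRCh38. GNAS at chr20:58839718-58911192 encodes the alpha subunit of the stimulatory G protein, which couples receptors to cyclic AMP. The same locus also makes the secretory protein NESP55, the large variant XL alpha s and transcripts with first exon A/B, from starts with different imprints, and 1 row of the table sums them all. NNAT, at chr20:37521206-37523690 on the same chromosome, encodes neuronatin, a small membrane protein of developing neurons. PEG10 at chr7:94656325-94669695 and MEST at chr7:130486171-130506465 are paternally expressed, the first derived from a retrotransposon and the second encoding a hydrolase-like protein. SNRPN at chr15:24823637-24978723 encodes a small nuclear ribonucleoprotein of the spliceosome, and NDN at chr15:23685400-23687305 encodes necdin, a growth suppressor of neurons, both in the Prader-Willi region. IGF2 at chr11:2129112-2158391 encodes a fetal growth factor, next to H19 at chr11:1995166-2004552. MEG3 at chr14:100779410-100861031 is a maternally expressed noncoding RNA, in 1 cluster with DLK1. PEG3 at chr19:56810077-56840728 encodes a zinc finger protein.

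Of the 10 genes, 6 had a start window in the RefSeq table of GRCh38.p14, with 20 windows in all, each from 250 bases before to 50 bases after a start. The windows shown are the outermost and 1 inner of the GNAS starts in that table, whose RNAs the single row adds together, and the windows of SNRPN, MEG3 and NDN, which set an expressed gene beside 2 that were nearly silent. They are written 5′ to 3′ on the strand of the gene, and capitals mark each CG, the dinucleotide at which imprints are written as methylation.
GNAS, most upstream start, chr20:58839498-58839797, plus strand: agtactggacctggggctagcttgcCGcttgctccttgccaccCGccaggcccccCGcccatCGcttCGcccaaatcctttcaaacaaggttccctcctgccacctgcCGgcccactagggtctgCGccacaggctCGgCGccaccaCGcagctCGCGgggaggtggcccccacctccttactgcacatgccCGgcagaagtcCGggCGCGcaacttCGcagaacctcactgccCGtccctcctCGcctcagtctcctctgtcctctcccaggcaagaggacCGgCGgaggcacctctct
GNAS, a start between these, chr20:58852466-58852765, plus strand: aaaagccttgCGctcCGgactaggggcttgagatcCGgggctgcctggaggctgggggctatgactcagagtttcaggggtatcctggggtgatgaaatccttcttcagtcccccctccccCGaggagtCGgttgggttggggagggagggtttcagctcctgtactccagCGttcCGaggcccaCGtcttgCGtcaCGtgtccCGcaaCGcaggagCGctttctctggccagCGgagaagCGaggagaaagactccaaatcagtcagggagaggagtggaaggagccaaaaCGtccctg
GNAS, most downstream start, chr20:58888930-58889229, plus strand: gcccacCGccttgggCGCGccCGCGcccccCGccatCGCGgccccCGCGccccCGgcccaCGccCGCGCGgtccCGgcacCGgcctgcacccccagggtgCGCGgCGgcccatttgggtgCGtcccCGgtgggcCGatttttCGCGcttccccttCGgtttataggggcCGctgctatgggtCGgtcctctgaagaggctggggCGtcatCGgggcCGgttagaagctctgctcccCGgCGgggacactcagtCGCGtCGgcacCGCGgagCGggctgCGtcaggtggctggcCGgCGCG
SNRPN, chr15:24954737-24955036, plus strand: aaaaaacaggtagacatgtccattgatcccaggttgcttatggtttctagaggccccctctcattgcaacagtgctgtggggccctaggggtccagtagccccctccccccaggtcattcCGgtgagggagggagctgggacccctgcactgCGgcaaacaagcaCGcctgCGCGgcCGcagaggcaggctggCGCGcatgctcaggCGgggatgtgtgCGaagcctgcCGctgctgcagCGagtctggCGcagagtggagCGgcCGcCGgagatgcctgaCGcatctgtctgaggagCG
MEG3, chr14:100825858-100826157, plus strand: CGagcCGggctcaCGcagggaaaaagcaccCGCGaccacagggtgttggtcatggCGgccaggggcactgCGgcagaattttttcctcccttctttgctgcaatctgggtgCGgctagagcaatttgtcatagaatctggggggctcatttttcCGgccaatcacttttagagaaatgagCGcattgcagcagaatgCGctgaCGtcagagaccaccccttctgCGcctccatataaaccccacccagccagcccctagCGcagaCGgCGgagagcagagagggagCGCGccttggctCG
NDN, chr15:23687256-23687555, minus strand: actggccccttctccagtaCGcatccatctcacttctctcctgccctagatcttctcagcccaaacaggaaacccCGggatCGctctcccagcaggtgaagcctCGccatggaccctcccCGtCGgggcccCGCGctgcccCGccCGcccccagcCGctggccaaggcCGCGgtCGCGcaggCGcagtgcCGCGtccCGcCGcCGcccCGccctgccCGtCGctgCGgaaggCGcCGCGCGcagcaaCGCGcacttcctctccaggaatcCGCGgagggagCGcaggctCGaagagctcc
The 3 GNAS windows shown hold 21, 16 and 43 CG, and the other 3 hold 10, 34 and 18. Of all 35116 windows of this length, 39.5%, 47.5% and 4.98% hold at least as many, and the median is 14.0. Inside the GNAS window with 43 CG, 10 annotated transcripts begin. The SNRPN window shown, the one with most CG of its 4 (7, 2, 18 and 11), holds 18 CG (44.5% of all windows hold as many), the MEG3 window shown, the one with most of its 3 (19, 17 and 18), 19 CG (42.9%) and the NDN window 35 CG (14.1%). NDN had 1 UMI in all kept cells, with more CG in its window than any of SNRPN. The count was made on CG as such on both strands, since the dinucleotide reads the same on either, and says nothing of methylation, which was not measured.

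The levels ran from 1933 CPM to 0. GNAS stood alone at the top, SNRPN, NNAT and PEG10 followed within a narrow range, IGF2 and PEG3 were low, and MEST, MEG3 and NDN were at or near 0. GNAS, SNRPN, NNAT and PEG10, 4 of the 10, were detected in 10% or more of cells in each flask. UMIs come from the 3′ end of an RNA and are not divided by gene length, and genes can differ in how well their ends are captured. No cell type known to lack these genes was in the culture, so the level that free RNA gives is not known.

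**Figure D1:**
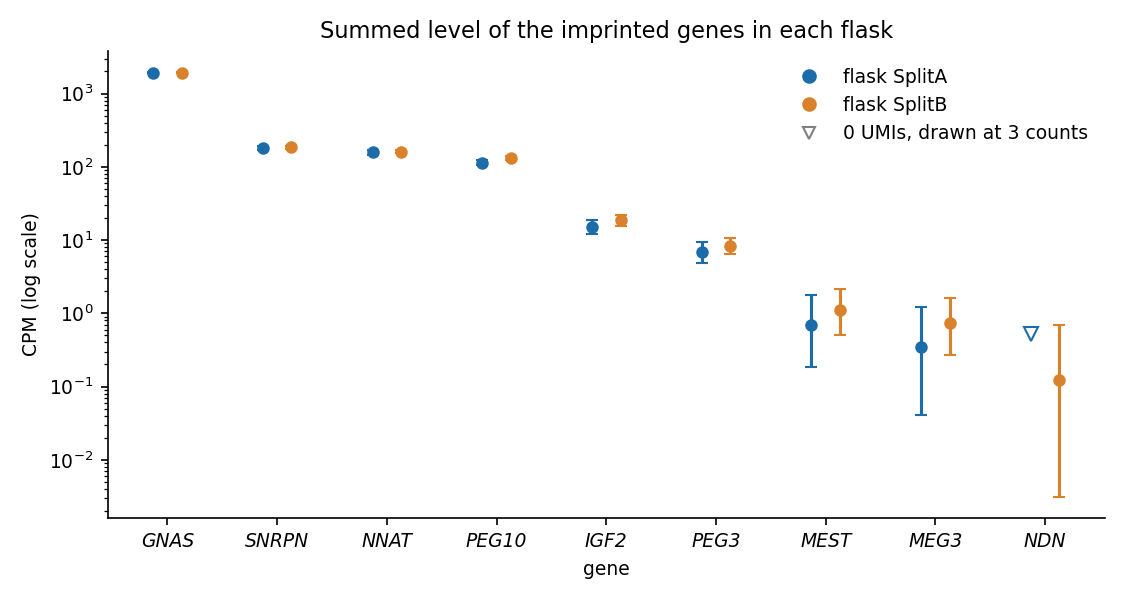
Summed level of 9 imprinted genes in flask SplitA (blue) and SplitB (orange), in CPM on a log axis, with exact Poisson 95% intervals. GNAS sits at 1933 and 1926 CPM, SNRPN, NNAT and PEG10 lie between 114 and 185 CPM, and NDN has 0 UMIs in SplitA (open triangle, drawn at the level of 3 counts).

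GNAS had 11312 UMIs in SplitA and 15534 in SplitB, which is 1933 CPM (1897 to 1969) and 1926 CPM (1896 to 1956). It was detected in 96.9% and 97.0% of cells. SNRPN had 179 CPM (168 to 190.2) in SplitA and 185 CPM (176 to 195) in SplitB, in 63.3% and 67.3% of cells. NNAT had 157 CPM (147 to 168) and 161 CPM (152 to 169.5), in 54.1% and 56.0% of cells. PEG10 had 114 CPM (105 to 123) and 131 CPM (123 to 139), in 37.7% and 43.3% of cells. The order SNRPN, NNAT, PEG10 was the same in both flasks, and only the intervals of SNRPN and NNAT in SplitA meet. The shares depend on depth. With every cell thinned to 2000 UMIs, which left out 1 cell of SplitA and 2 of SplitB, GNAS was detected in 83.7% and 83.2% of cells, SNRPN in 29.3% of both, NNAT in 24.1% and 26.4%, and PEG10 in 16.8% and 21.8%.

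IGF2 had 89 and 150 UMIs, which is 15.2 CPM (12.2 to 18.7) in SplitA and 18.6 CPM (15.7 to 21.8) in SplitB. A UMI of it was found in 9.01% and 11.1% of cells, and no cell had more than 3. PEG3 had 40 and 67 UMIs, or 6.83 CPM (4.88 to 9.31) and 8.31 CPM (6.44 to 10.5), below IGF2 in both flasks with intervals apart. MEST had 4 and 9 UMIs, MEG3 had 2 and 6, and NDN had 0 and 1. The count of 0 for NDN in 899 cells allows up to 3 counts, or 0.513 CPM, and the upper bound of its exact interval is 0.630 CPM. The intervals of MEST, MEG3 and NDN overlap within each flask, so they do not settle the order inside a flask. By UMIs MEST was the highest of these and NDN the lowest in both flasks, and the flasks were not summed to compare them. Within the cluster that MEG3 shares with DLK1, MEG3 had 0.342 and 0.744 CPM and DLK1 had 2566 and 2663 CPM.

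None of the 6 genes with at least 50 UMIs over both flasks differed by 1.5-fold between the flasks, where 3.07% of all 10516 genes at that depth did. The ratio of SplitB to SplitA was 0.996 for GNAS (exact 95% interval 0.972 to 1.02), 1.03 for SNRPN (0.954 to 1.12) and 1.02 for NNAT (0.937 to 1.11). It was 1.22 for IGF2 (0.935 to 1.61) and 1.22 for PEG3 (0.810 to 1.85), both with 1 inside the interval. PEG10 alone had an interval that leaves out 1, with a ratio of 1.15 (1.04 to 1.27). That interval counts UMIs as independent, and the PEG10 UMIs were clumped in few cells, as described for its spread.

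Several rows share exons with another gene, and whether the counting used strand is not given in the sources used here. IGF2 overlaps IGF2-AS on the opposite strand, which at 27.2 and 31.6 CPM had more UMIs than IGF2 itself. PEG10 overlaps SGCE (23.7 CPM in both flasks) and NNAT overlaps BLCAP (24.3 and 25 CPM), each on the opposite strand and each far below its partner. None of these antisense pairs correlated by 0.1 or more across cells in either flask, with r from -0.04 to 0.08. SNRPN shares exons with SNURF on the same strand (1.71 and 1.98 CPM), and reads of the shared part cannot be assigned to either. The same holds for IGF2 and INS-IGF2, which share exons on the same strand, and INS-IGF2 had 0 UMIs in all cells. Whether the level of IGF2 is too low for this reason was not tested. These overlapping genes were looked up after the values had been seen, apart from SGCE, SNURF and BLCAP, which were listed.

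The genes differed in how evenly their RNA was spread over cells. Spread was measured as residual variance, the mean squared Pearson residual of a count when each cell is given the same proportion of its UMIs, so that counting noise alone gives 1. Of the 9 genes, 5 had at least 50 UMIs in each flask and could be described. GNAS, PEG10 and NNAT, 3 of the 5, had a residual variance of 1.5 or more in both flasks, against 4.0% of all 7756 genes at that depth. The median over all genes was 1.06 in SplitA and 1.07 in SplitB. IGF2 (1.04 and 1.03) lay near that median, and SNRPN (1.08 and 1.09) a little above it. By the smaller value of both flasks, IGF2 ranked 3718 and SNRPN 2210 of the 7756 genes. Residual variance grows with level, so overdispersion, the squared relative spread left after counting noise, is given beside it. The limit is also harder to pass at low depth: with every cell thinned to 2000 UMIs the mean of both flasks was 5.20 for GNAS, 1.27 for PEG10 and 1.28 for NNAT, and only GNAS passed. Ranked by the variance of log-normalized counts over their mean, none of the 5 was among the highest 10% of genes.

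GNAS had a residual variance of 15.51 in SplitA and 14.19 in SplitB, which ranked 9 of 7756 genes by the smaller of both values. Its cells held 12.6 ± 16.4 UMIs (mean and SD over 899 cells) in SplitA and 13 ± 16.5 (1195 cells) in SplitB, with a highest count of 132 and 119. Per 10000 UMIs of a cell, the lowest 10% of cells had at most 2.91 and 3.08, the median cell 10.9 and 11.1, and the highest 10% at least 46.5 and 45.3. The 10% of cells with most GNAS held 42.0% and 41.8% of its UMIs. Its overdispersion was 1.12 and 0.98, against 0.15 and 0.18 for GAPDH, a housekeeping gene of similar level (2239 and 2328 CPM). With 1 proportion in every cell, 48.4% of the cells of SplitA would hold 11 to 20 UMIs, but 15.7% did, while 26.0% held 3 to 5 UMIs in place of 8.66%. In SplitA 61 cells, and in SplitB 98, had 41 or more UMIs of GNAS, where 1 proportion gives 4.27 and 7.39.

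PEG10 was clumped in another way. It had no UMI in 62.3% of cells of SplitA and 56.7% of SplitB, where 1 proportion would give 49.8% and 44%, yet single cells reached 24 and 18 UMIs. Counts of 6 or more were found in 19 cells of SplitA and 31 of SplitB, where 1 proportion gives 0.698 and 2.05. The 10% of cells with most PEG10 held 56.5% and 52.1% of its UMIs. Its residual variance was 2.37 and 2.16, and its overdispersion of 2.22 and 1.44 ranked 10 among the 1027 genes of 100 CPM or more, whose median is 0.10. GNAS ranked 22 and NNAT 31 among them.

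NNAT had a residual variance of 2.12 and 1.78 and an overdispersion of 0.76 and 0.78. It was at 0 in 45.9% and 44% of cells, against 38.9% and 37.1% for 1 proportion, and its highest counts were 15 and 20 UMIs. SNRPN, at a level close to that of NNAT, was closer to the counts of 1 proportion, with 36.7% and 32.7% of cells at 0 against 34.5% and 32.3%. Counts of 6 or more were found in 6 cells of SplitA and 15 of SplitB, against 4.61 and 8.20. Its overdispersion of 0.08 and 0.09 ranked 640 of 1027, and no cell had more than 9 UMIs. IGF2 is too sparse for its spread to be judged well, with an overdispersion of 0.64 and 0.63 beside a residual variance near 1.

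**Figure D2:**
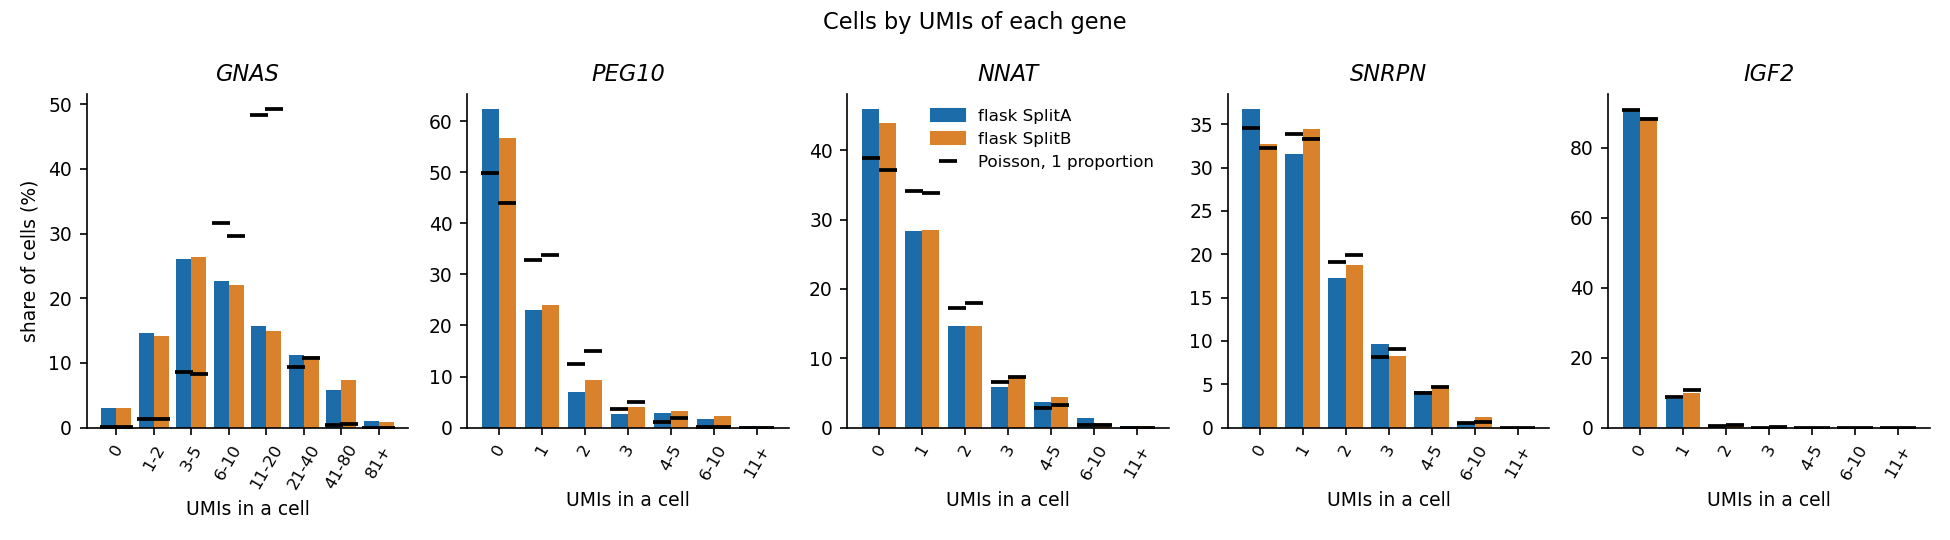
Share of cells (%) by the number of UMIs of each gene in flask SplitA (blue bars) and SplitB (orange bars), with the share that a Poisson count of 1 proportion per gene gives (black marks). GNAS, PEG10 and NNAT have more cells at the low end than the marks and more cells in the highest bins, while the bars of SNRPN lie close to the marks.

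**Figure D3:**
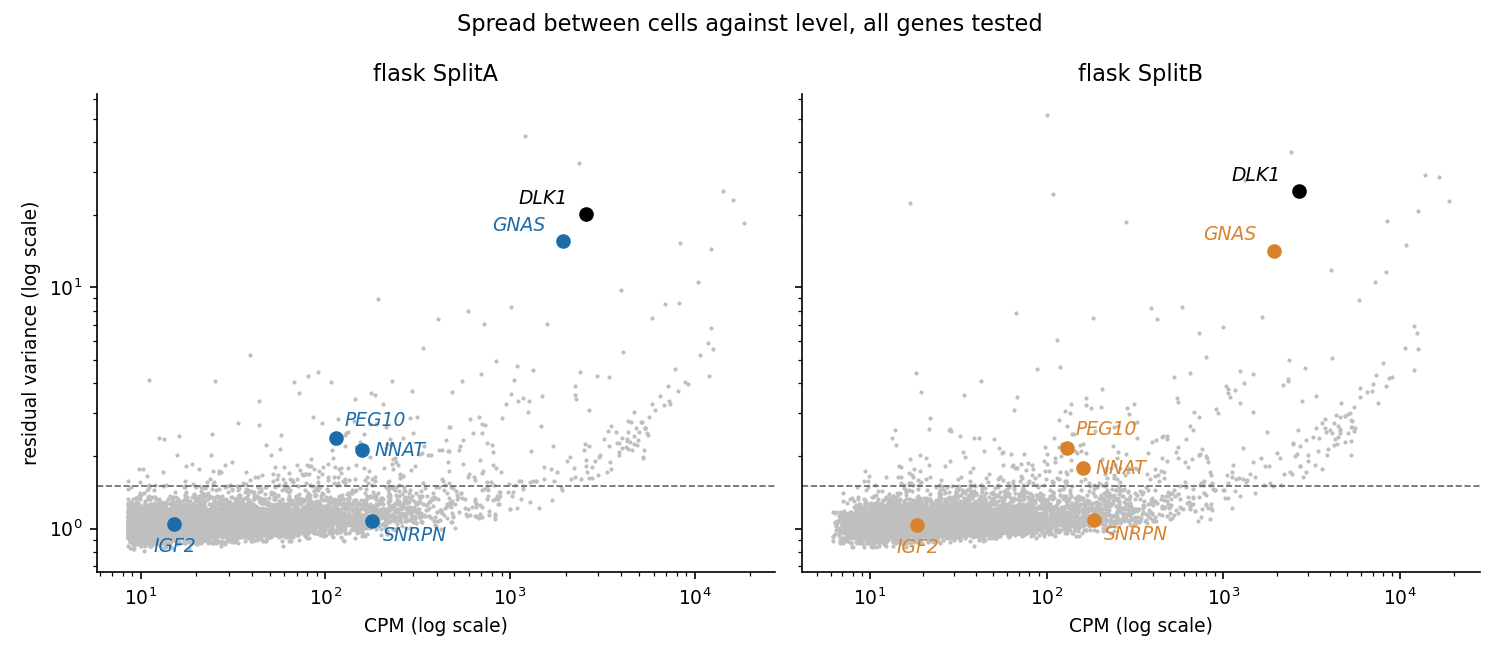
Residual variance against level in CPM, both on log axes, for 7756 genes (grey) with the 5 imprinted genes (coloured) and DLK1 (black), 1 panel per flask. The dashed line is at 1.5, and GNAS (15.51 and 14.19), PEG10 and NNAT lie above it in both flasks while SNRPN and IGF2 lie below.

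Among the 5 genes, 1 pair was correlated across cells in both flasks. Correlations are Pearson r of the residuals across the cells of 1 flask, 899 in SplitA and 1195 in SplitB. All these cells share 1 library, and their depth enters only through the expected count. Of the 10 pairs, GNAS and IGF2 had r of 0.1 or more in both flasks, at 0.24 and 0.23. Among all pairs of the 7756 genes, 0.418% had an absolute r of 0.1 or more with the same sign in both. The other 9 pairs lay between -0.05 and 0.05, and 6 of them had the same sign in both flasks. For GNAS and IGF2 the correlation after the counting noise is taken off was 0.941 and 0.811, a value that rests on 89 and 150 UMIs of IGF2. A value of this kind has no interval here and is not bounded by 1 in size. For IGF2 in SplitA it was 2.22 with ZDBF2 and -3.14 with SGCE, so 0.941 cannot be read as near complete agreement. The same value was 0.0649 and 0.0403 for GNAS and PEG10, 0.0736 and 0.0177 for GNAS and SNRPN, and -0.0609 and -0.0510 for GNAS and NNAT. PEG10 and SNRPN had -0.214 and -0.175 and PEG10 and IGF2 had -0.0182 and -0.297. It changed sign between the flasks for SNRPN with IGF2 (-0.102 and 0.391) and for SNRPN with NNAT (0.128 and -0.0873). PEG10 with NNAT (-0.000952 and -0.0432) and IGF2 with NNAT (-0.0978 and -0.0163) had the same sign in both flasks. In sparse counts such as those of IGF2, r of the residuals is held near 0, so a low r alone does not show that genes vary apart. For GNAS with PEG10 and with NNAT, the values with the counting noise taken off were low as well.

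IGF2 was higher in the cells with more GNAS. The cells of each flask were ordered by the GNAS residual and cut into quartiles, which are ranges of a continuous value and not cell types. In SplitA, IGF2 had 5.52, 5.99, 18.0 and 30.9 CPM from the lowest to the highest quartile, and in SplitB 11.3, 9.31, 18.2 and 33.2 CPM. The ratio of the highest to the lowest quartile was 5.60 and 2.94, and the intervals of both ends do not overlap in either flask. GNAS itself, the gene used to order the cells, went from 414 to 4733 CPM in SplitA and from 411 to 4472 CPM in SplitB. The ratio was 1.03 and 1.18 for PEG10 and 1.11 and 1.04 for SNRPN. NNAT had 137 (119 to 156) in the lowest and 157 CPM (138 to 178) in the highest quartile of SplitA, which overlap, and 129.5 (115 to 145) and 162 CPM (146 to 179.7) in SplitB, which do not. It did not rise in steps over the quartiles, since its highest quartiles were the third in SplitA (187 CPM) and the second in SplitB (183 CPM). PEG3 had 0.375 and 0.754, from at most 20 UMIs in each quartile, with intervals that overlap.

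Other imprinted genes were described from lists chosen with earlier results of these data known. Of 28 further genes at the loci of the 10, 27 had a row and 7 of these had no UMI in the kept cells, among them INS, ASCL2, MAGEL2 and NPAP1. The highest were KCNQ1OT1 (110.0 and 97.4 CPM), CDKN1C (70.1 and 74.9 CPM) and UBE3A (50.4 and 52.7 CPM). None of the 10 deep enough passed 1.5-fold between flasks, where 3.07% of all genes did. Of 7 described for spread, 2 had a residual variance of 1.5 or more in both flasks, against 4.0% of all genes: CDKN1C (1.84 and 2.04), an inhibitor of the cell cycle, and KCNQ1OT1 (1.97 and 1.74), the antisense RNA that controls the CDKN1C domain. Of 20 imprinted genes listed under other loci, 18 had a row and 3 had no UMI. In this list, 1 of 10 passed 1.5-fold and 1 of 6 passed the limit on spread, beside the same shares of all genes. The first was TP73, with 21 and 49 UMIs, and the second DDC (1.8 and 2.37), which encodes the decarboxylase of dopamine synthesis and was the highest of its list at 97.6 and 110.3 CPM, followed by RB1 (28.5 and 25.4 CPM) and INPP5F (25.5 and 22.7 CPM). In the cluster of MEG3, MEG8 (2.73 and 2.23 CPM), RTL1 (2.56 and 2.60 CPM) and DIO3 (3.93 and 2.85 CPM) were low, as MEG3 was.

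Of 13 listed imprinted genes deep enough, 3 had r of 0.1 or more with GNAS in both flasks, CDKN1C (0.45 and 0.33), DDC (0.36 and 0.35) and KCNQ1OT1 (0.28 and 0.19), and none had r of -0.1 or less. Over all genes the share was 3.22% in the positive direction, 2.37% in the negative and 5.60% in both. With IGF2, CDKN1C (0.13 and 0.14) and DDC (0.17 and 0.16) passed, where 0.155% of all genes did. None passed with PEG10, SNRPN or NNAT, for which the share of all genes was 0.348%, 0.0903% and 0.0258%. From the lowest to the highest GNAS quartile, CDKN1C went from 35.0 to 136 CPM in SplitA and from 32.6 to 147 CPM in SplitB, and DDC from 31.9 to 194 CPM and from 40.4 to 230.4 CPM. UBE3A, also imprinted, had ratios of 0.789 and 0.865. CDKN1C, KCNQ1OT1 and IGF2 lie in neighbouring domains of chromosome 11, while GNAS is on chromosome 20 and DDC on chromosome 7.

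**Figure D4:**
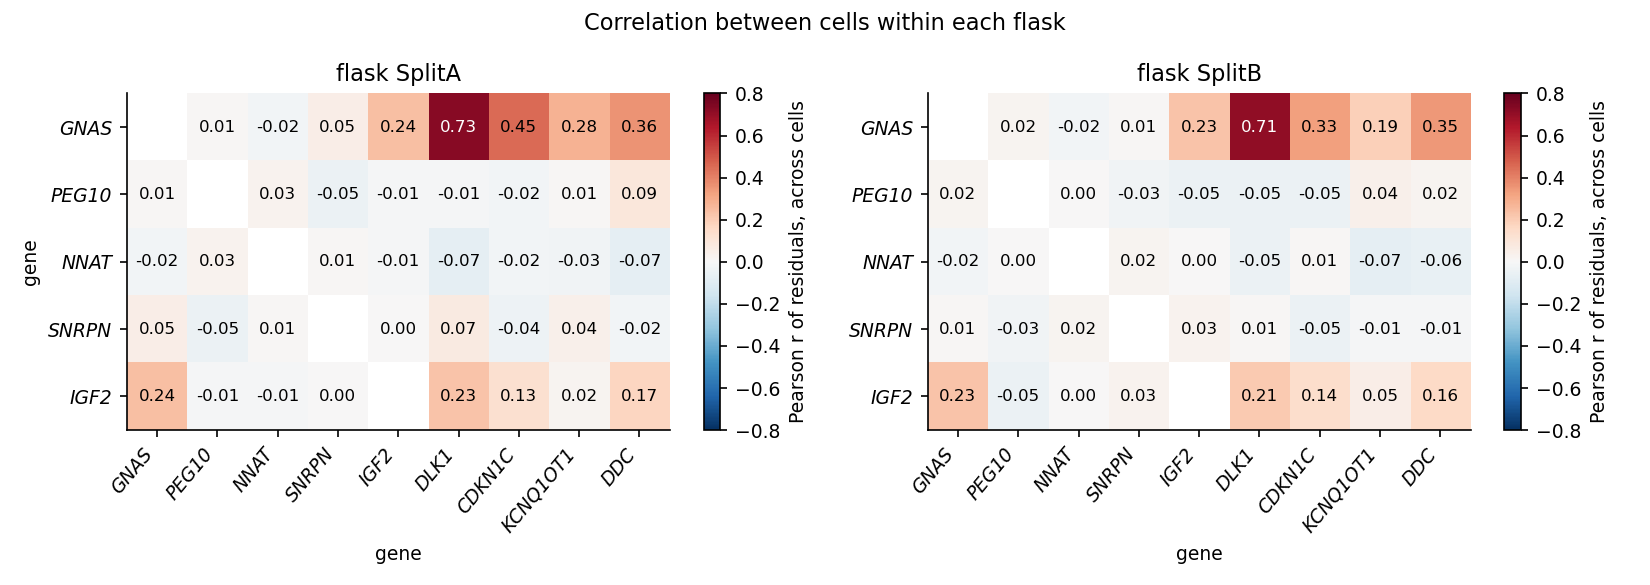
Pearson r of residuals across the cells of flask SplitA (left) and SplitB (right) between the 5 imprinted genes (rows) and these genes with 4 more (columns), from blue (negative) to red (positive). The values stand in the cells: GNAS and IGF2 are at 0.24 and 0.23, GNAS and DLK1 at 0.73 and 0.71, and the rows of PEG10, NNAT and SNRPN hold values between -0.07 and 0.09.

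DLK1 was the gene most like GNAS of all 7755 others, with r of 0.73 and 0.71. Next were GAL, the neuropeptide galanin (0.54 and 0.53), and RAMP1, a partner of the calcitonin-like receptor (0.47 and 0.46). The lowest were PTMA, a chromatin protein of proliferating cells (-0.42 and -0.40), YBX1, a protein that binds RNA (-0.30 and -0.29), and RPL22L1, a ribosomal protein (-0.27 and -0.28). DLK1 encodes a membrane ligand of the Notch family of signals, and it had 5.53 and 5.78 times the level in the highest GNAS quartile that it had in the lowest. IGF2 had r of 0.23 and 0.21 with DLK1, close to its value with GNAS.

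GNAS-rich cells also differed in cell cycle and lineage RNAs. The residuals of GNAS had r of -0.22 in both flasks with the summed S phase genes, and of -0.25 and -0.21 with the summed G2M genes. Of the 18 S phase genes deep enough, 8 had r of -0.1 or less with GNAS in both flasks, as had 7 of 18 G2M genes, where 2.37% of all genes did, and none had r of 0.1 or more. Of 8 adrenergic markers deep enough, 4 had r of 0.1 or more with GNAS in both flasks (3.22% of all genes), CHGA (0.31 and 0.26), DBH (0.28 and 0.26), HAND2 (0.22 and 0.20) and PHOX2A (0.13 and 0.12). VIM, the 1 mesenchymal marker deep enough, had 0.37 and 0.29. The granule protein CHGB had 0.43 and 0.39 and the calcium-binding protein S100A11 had 0.43 and 0.34. The part of these markers in the spread of GNAS was not tested. The 20 S phase genes summed to 997 CPM in the lowest and 668 CPM in the highest GNAS quartile of SplitA, and to 1008 and 668 CPM in SplitB. The 20 G2M genes summed to 2538 and 1137 CPM in SplitA and to 2390.4 and 1255 CPM in SplitB. The largest of them was HMGB2, with 841 of 2113 CPM over all kept cells of SplitA and 802 of 2009.7 CPM in SplitB. Its r with GNAS was -0.28 and -0.25, and its part in the fall of the sum was not tested. The part of the cycle in the spread of GNAS was not tested. With both sums regressed out, the r of GNAS and IGF2 was 0.22 and 0.20, against 0.24 and 0.23 without this step. The part of the cycle in that pair was not tested either. The r of GNAS was 0.06 and 0.08 with total UMIs and -0.05 and -0.02 with the mitochondrial share. Depth nevertheless differed over the quartiles, with a median of 6949, 5609, 5390.0 and 6070.5 UMIs per cell from the lowest to the highest in SplitA and 7421, 5663, 5410.0 and 6561 in SplitB, so that the lowest quartile was the deepest in both flasks. The part of depth in the quartile values was not tested.

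**Figure D5:**
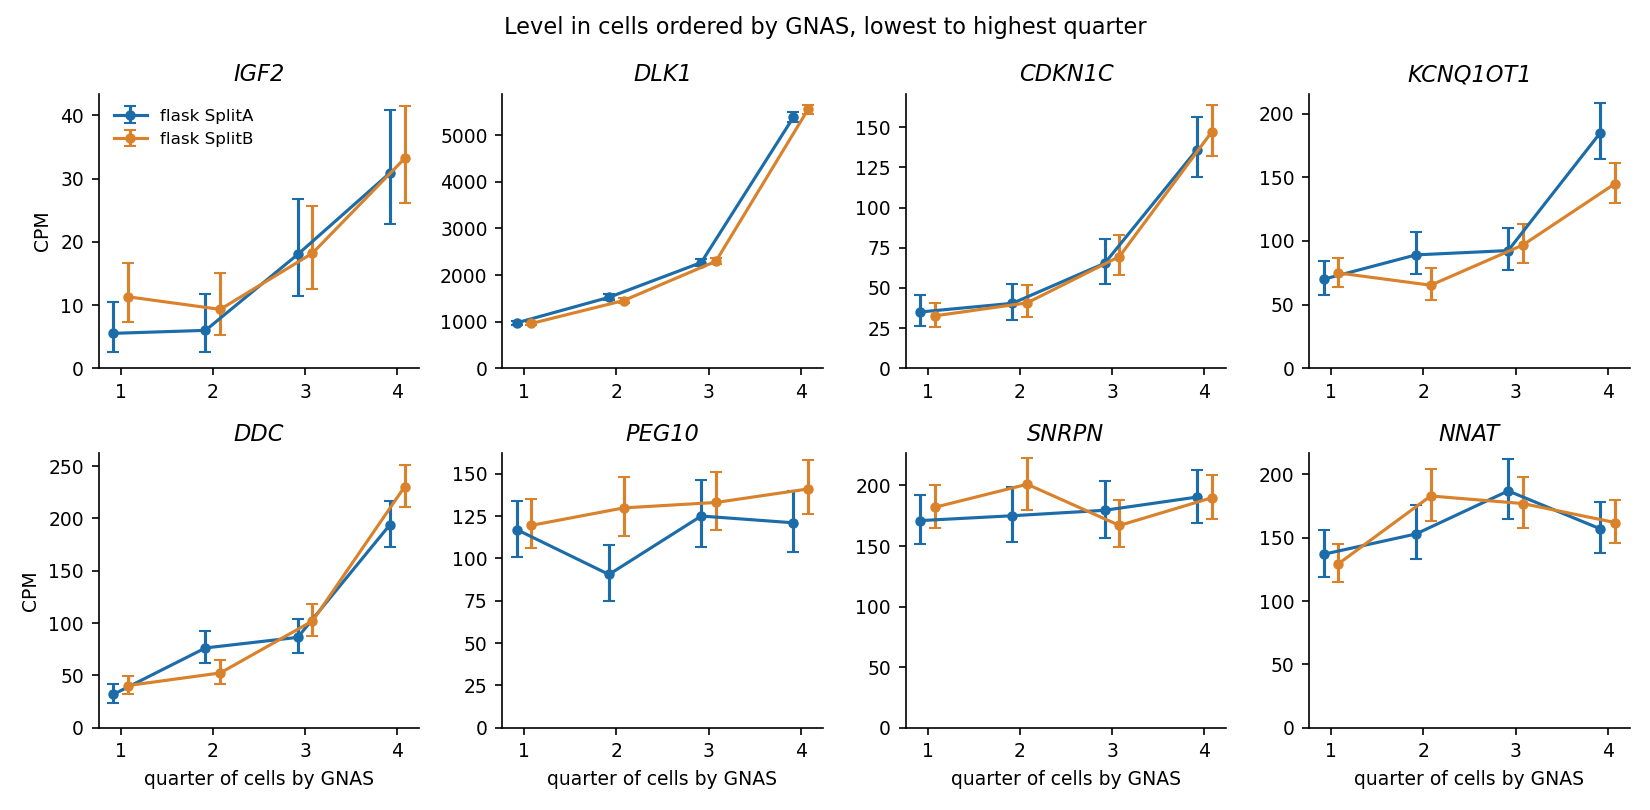
Level of 8 genes, in CPM, in the cells of each flask ordered by the GNAS residual and cut into quartiles from lowest (1) to highest (4), with exact Poisson 95% intervals, SplitA in blue and SplitB in orange. IGF2, DLK1, CDKN1C, KCNQ1OT1 and DDC are highest in quartile 4 of both flasks, while PEG10, SNRPN and NNAT lie between 90.5 and 201 CPM in every quartile.

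PEG10 was most like GNG11, a gamma subunit of G proteins, with r of 0.36 and 0.28. GNG11 is also on chromosome 7, and its start lies at -735 kb from that of PEG10. VGF, a neuropeptide precursor also on chromosome 7 (0.14 and 0.13), and the adhesion molecule ALCAM (0.18 and 0.13) followed. The lowest were the ribosomal proteins RPS4X (-0.16 and -0.15), RPL6 (-0.15 and -0.17) and RPL4 (-0.14 and -0.16). The relation of PEG10 to GAL differed between flasks, with r of 0.32 in SplitA and 0.09 in SplitB, and this difference was not tested. NNAT had only weak relations, the highest with RGS5 (0.13 and 0.15), LIMD2 (0.13 and 0.10) and YBX1 (0.11 and 0.10) and the lowest with S100A6 (-0.09 and -0.11), MXRA8 (-0.12 and -0.08) and FOXC1 (-0.08 and -0.09).

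Position on the chromosome was examined after these partners had been seen. Within 1 Mb of the start of GNAS, 2 of 6 genes deep enough had an absolute r of 0.1 or more with it in both flasks, against 5.60% of all genes. They were ATP5F1E (0.40 and 0.36), a subunit of ATP synthase whose start lies 193 kb downstream, and RAB22A (0.15 and 0.19), whose start lies at -530.0 kb, while NELFCD at 141 kb had 0.12 and 0.08. For PEG10 it was 1 of 7, GNG11, against 0.348% of all genes, with TFPI2, beside GNG11, at 0.13 and 0.09. For IGF2 it was 1 of 15, CDKN1C, against 0.155%. For SNRPN it was 0 of 1 and for NNAT 0 of 14, which is close to their shares of 0.0903% and 0.0258%.

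Among the 20 genes most like PEG10, 5 lie on its chromosome 7 (GNG11, VGF, GTF2I, TFPI2 and ACTB), which is 25%, where 5.48% of the genes tested do. Of the 20 most like SNRPN, 4 lie on its chromosome 15 (SRP14, SERF2, RPLP1 and RPL4), or 20% against 3.19%, and SRP14 (0.12 and 0.13), SERF2 (0.12 and 0.13) and RPLP1 (0.10 and 0.11) are its first 3. The count was 2 of 20 for GNAS (10% against 2.84%), 2 of 20 for IGF2 (10% against 5.92%) and 0 of 20 for NNAT (against 2.84%). An absolute r of 0.1 or more in both flasks was reached by 7 genes with SNRPN, 12 with IGF2 and 2 with NNAT. Their lists of 20 thus reach below that limit. The genes tested were not matched for level to those in the lists. The residuals of each gene were then correlated with the summed UMIs of each chromosome, with genes within 1 Mb of the member left out. PEG10 had its highest r with chromosome 7 of all 23 chromosomes in both flasks, 0.13 and 0.18, where the next were 0.10 and 0.12. Those sums still hold the partners named above. Without the 20 genes of highest r with it, which takes positive values out of the sums, PEG10 still had its highest r with chromosome 7, at 0.12 and 0.16, where the next were 0.06 and 0.12. SNRPN had its highest r with chromosome 15 when its partners were in the sum, 0.15 and 0.16, but without its 20 partners the values were 0.05 and 0.06, with ranks of 4 and 8. For GNAS and chromosome 20 they were 0.00 and -0.02 with the partners and -0.11 in both flasks without them, for NNAT -0.02 and 0.01 either way, and for IGF2 and chromosome 11 0.10 and 0.02 either way. The sums differ in how many genes and UMIs they hold, and what sets the values was not tested.

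The signalling genes around IGF2 and GNAS were given from listed sets. Of 15 genes of the IGF axis, IGF1, IGFBP1 and IGFBP7 had no UMI. The highest were the binding proteins IGFBP2 (239 and 238 CPM) and IGFBP5 (72.1 and 65.3 CPM) and the adaptor IRS2 (117 and 109.7 CPM). The receptor IGF1R (16.7 and 19 CPM) was near the level of IGF2. So was the receptor IGF2R (18.6 and 21.8 CPM), which is not among the 15 and was listed with imprinted genes of other loci. None of 8 genes of the IGF axis passed 1.5-fold between flasks (3.07% of all genes). The limit on spread was passed by 2 of 8 (4.0% of all genes), IGFBP2 (residual variance 1.97 and 2.19) and IGFBP5 (3.66 and 3.09). With GNAS, 1 of 8 had r of 0.1 or more in both flasks (3.22% of all genes), and none had r of -0.1 or less (2.37%). Of 19 genes of the Gs and cyclic AMP axis, 2 had no UMI, ADCY2 and GNAL. GNB1 (104 and 108 CPM), PRKAR1A (73.0 and 73.6 CPM) and ADCY1 (32.8 and 37.4 CPM) were the highest. None of 12 genes of this axis passed the limit on spread and none had an absolute r of 0.1 or more with GNAS in both flasks. With 4.0% and 5.60% of all genes past these limits, 0 of 12 is close to the background and is no result about the axis.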

How the data were processed

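Cells of 2 untreated flasks were tagged with hashtag antibodies, pooled and prepared with the 10X Genomics Single Cell 3′ kit. Reads were mapped by the authors to GRCh38 with STAR 2.7 and counted with Cell Ranger 4.0.0, and the deposited values are UMI counts per gene and cell, whole numbers without normalization. The gene annotation and the strand setting are not given in the sources used here. Symbols were matched by Ensembl identifier for 33113 of 33538 rows.

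Hashtag limits were those of the authors' supplementary code. Cells of 1000 or more genes were kept, and 690 assigned cells fell below this. Hashtags remove doublets of 2 flasks only, so doublets within a flask were not removed and cells over 2.5 times the median UMIs were left out as an alternative. Median mitochondrial shares were 8.64% and 8.82%, and the flasks had 70 and 104 cells at 15% or more, which were kept.

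Fold between flasks was computed for genes with 50 UMIs over both flasks, and residual variance, overdispersion and Pearson r of residuals for genes with 50 UMIs in each, with Python 3.11.15, numpy 2.4.6 and scipy 1.17.1. Limits were 1.5-fold, 1.5 and 0.1. The scripts were tested on simulated data. No group was tested against another, since each flask is 1 sample and both are in 1 library. Positions are of GENCODE 44, and start windows of RefSeq.

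The members, lists and limits were chosen with earlier results of these data known. The named genes were the members, the genes of the lists past a limit or among the 3 highest in CPM, and, for members past the limit on spread, the 3 genes of highest and of lowest r. The quartiles, neighbours within 1 Mb, chromosome sums (also without the 20 genes of highest r), antisense partners, markers with GNAS and partners of SNRPN were added after values had been seen. The value of 1 listed marker is not reported here. Alternatives concerned the hashtag limit, cell filters, depth, totals, limits, measures, the cell cycle and leaving out each flask.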

Additional observations from a re-analysis of the deposited data

How the results depend on the processing

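The number of members detected in 10% of cells was 4 under every change of cells, depth or totals, 5 with a limit of 5% of cells, and 4 to 5 with 1 flask left out. No member passed the limit between flasks under any alternative, which includes a lower fold limit and a log2 difference of 0.25 in mean log-normalized expression. With 1 flask left out no fold could be computed. The members past the limit on residual variance were 3 and became 1 with every cell thinned to 2000 UMIs, where each gene has fewer counts, and 0 with the variance of log-normalized counts over its mean, for which the cause was not tested. The pairs past the limit on r were 1 and became 0 with thinned cells, where IGF2 was under 50 UMIs in a flask and could not be described. With 1 flask left out the counts were 3 to 3 and 1 to 1, and they did not change under the other alternatives. The r of GNAS and IGF2 lay between 0.19 and 0.26 over the 9 settings with both flasks. These settings include Spearman's rho, at 0.26 and 0.23, a measure that also raised other pairs of IGF2, as given below. Of the values of single genes and pairs, 174 moved by less than the spread between the flasks, and 67 by more. Leaving out 1 flask moves the mean of both by less than their difference. Those settings are thus among the 174 by construction and say nothing of stability. With Spearman's rho, PEG10 and IGF2 went from r of -0.01 and -0.05 to rho of 0.25 and 0.09, and IGF2 and NNAT from -0.01 and 0.00 to 0.13 and 0.09. The mean of both flasks thus changed sign for each pair, 0.1 was passed in SplitA alone, and the cause was not tested.

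Depth limits MEST, MEG3 and NDN to a few UMIs and the correlations of IGF2 to 89 and 150 UMIs. With 1 library, both flasks share every step after pooling.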

Other observations

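Cells outside the kept ones also held RNA of these genes. The 73 cells with 1000 or more genes that were given to neither flask had 1857 CPM of GNAS (1747 to 1971), 159 CPM of SNRPN, 145 CPM of NNAT and 114 CPM of PEG10. IGF2 was at 36.3 CPM (22.5 to 55.6, from 21 UMIs), above its interval in both flasks. MEG3, NDN and MEST had no UMI in these cells, which allows up to 3 counts or 5.19 CPM each, with 6.38 CPM as the upper bound of the exact interval. Their median depth was 7636 UMIs. The 690 assigned cells under 1000 genes, with a median of 1406 UMIs and a mitochondrial share of 35.0%, had 1649.9 CPM of GNAS, 81.1 CPM of SNRPN, 51.7 CPM of NNAT, 83.1 CPM of PEG10 and 11.1 CPM of IGF2. SNRPN and NNAT were thus lower relative to the kept cells than GNAS was, and DLK1 was higher there, at 3935 CPM. Mitochondrial UMIs are part of the total in CPM, and their median share in the kept cells was 8.64% in SplitA and 8.82% in SplitB. A larger share lowers the CPM of all other genes, and its part in these levels was not tested. In the kept cells the residuals of SNRPN had r of -0.09 and -0.16 with the mitochondrial share, and its lowest partners were the mitochondrial genes MT-ATP6 (-0.12 and -0.16), MT-ND1 (-0.12 and -0.17) and MT-ND2 (-0.10 and -0.16), named after their values had been seen.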
